A study of Mus musculus with 8 samples.

Results

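The genes described here are 10 members of the cornified envelope group, namely the small proline-rich genes Sprr1a, Sprr1b, Sprr2b, Sprr2d, Sprr2e, Sprr2f, Sprr2g and Sprr3 with involucrin (Ivl) and loricrin (Lor), measured in the whole uterus of mice with and without Foxa2. They were chosen by name, as symbols that a probe set of the array carries alone, and all 10 were found among the 19938 genes tested, each with 1 probe set. Controls were Pgr+/+ Foxa2+/+ females and mutants were PgrCre/+ Foxa2flox/flox females, so that floxed Foxa2 was cut by a Cre placed in the progesterone receptor gene Pgr, in cells that use Pgr. Both groups were mated to vasectomised wild type males, and whole uteri were frozen on day 3.5 of pseudopregnancy, with the plug day counted as 0.5. No label used here states the age or strain of the animals. Cre and the loss of an intact Pgr allele came with the Foxa2 deletion, so their parts in any difference cannot be told apart. Each group had 4 uteri and each uterus 1 array, and values are log2 intensities after RMA, a procedure that corrects background, normalises arrays and summarises the probes of a gene.

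Small proline-rich proteins are short cytoplasmic proteins that transglutaminases join to involucrin, loricrin and each other, and the product is the cornified envelope, the cross-linked protein shell under the membrane of keratinocytes. The uterus has a simple epithelium that does not normally cornify, but Sprr2 genes are known to be induced there by estrogen, chiefly in the lumen. FOXA2 is a transcription factor of the uterine glands.

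The Foxa2 probe set read 8.61, 8.82, 8.74 and 8.73 in control replicates 1 to 4 and 8.22, 8.20, 8.21 and 8.21 in deleted replicates 1 to 4, a change of -0.52 (SE 0.05, adjusted p = 0.0013, limma), so the arrays followed their labels. No source used here says whether that probe set lies in the deleted part. The steroid receptor genes Esr1 and Pgr, which mark uterine tissue, lay at 11.87 ± 0.02 and 11.23 ± 0.05 (SD, n = 4 each) in controls. Array medians ran from 8.25 to 8.32. Deleted uteri varied more than controls, with correlations across genes of 0.981 to 0.990 between deleted arrays and 0.996 to 0.997 between controls, where genes are not independent replicates.

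The 10 genes lie in a single cluster on chromosome 3, with Lor and Ivl as its outer members in the gene order of the mouse assembly GRCm38.p6. Of the 10 members 9, all but Sprr2g, matched an entry in the RefSeq promoter table, and the 250 bases before the start of 7 family genes are printed below in the direction of the gene, since they set genes that moved strongly beside close relatives that did not. Capitals mark matches to the AP-1 motif TGANTCA and to the octamer ATTTGCAT, searched on both strands. Sprr2f is at chr3:92364937-92365186, Sprr2d at chr3:92338890-92339139, Sprr2e at chr3:92351893-92352142, Sprr2b at chr3:92316455-92316704 and Sprr2i at chr3:92407741-92407990, all on the plus strand of GRCm38.p6. Sprr1a is at chr3:92485882-92486131 and Sprr1b at chr3:92438780-92439029, on the minus strand.
Sprr2f: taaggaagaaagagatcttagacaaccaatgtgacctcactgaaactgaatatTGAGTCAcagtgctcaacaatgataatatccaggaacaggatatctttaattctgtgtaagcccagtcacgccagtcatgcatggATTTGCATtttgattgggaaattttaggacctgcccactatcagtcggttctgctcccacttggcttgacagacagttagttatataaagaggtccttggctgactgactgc
Sprr2d: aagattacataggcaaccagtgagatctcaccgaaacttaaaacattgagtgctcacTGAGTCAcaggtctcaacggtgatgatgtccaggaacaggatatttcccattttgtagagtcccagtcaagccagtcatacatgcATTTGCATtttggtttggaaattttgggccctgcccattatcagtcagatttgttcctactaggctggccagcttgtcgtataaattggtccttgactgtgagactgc
Sprr2e: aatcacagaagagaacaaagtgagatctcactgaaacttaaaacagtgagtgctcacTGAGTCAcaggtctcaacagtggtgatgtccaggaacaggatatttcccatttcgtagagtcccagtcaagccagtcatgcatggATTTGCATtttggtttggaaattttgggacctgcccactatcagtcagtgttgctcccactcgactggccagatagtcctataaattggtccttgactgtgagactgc
Sprr2b: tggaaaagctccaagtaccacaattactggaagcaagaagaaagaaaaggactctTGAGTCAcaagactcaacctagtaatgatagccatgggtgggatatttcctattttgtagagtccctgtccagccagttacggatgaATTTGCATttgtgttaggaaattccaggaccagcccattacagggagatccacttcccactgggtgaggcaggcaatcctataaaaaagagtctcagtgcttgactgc
Sprr2i: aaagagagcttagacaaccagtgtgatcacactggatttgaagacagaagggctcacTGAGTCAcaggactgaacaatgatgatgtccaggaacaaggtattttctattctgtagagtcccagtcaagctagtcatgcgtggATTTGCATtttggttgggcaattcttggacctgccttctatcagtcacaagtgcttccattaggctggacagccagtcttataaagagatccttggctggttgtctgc
Sprr1a: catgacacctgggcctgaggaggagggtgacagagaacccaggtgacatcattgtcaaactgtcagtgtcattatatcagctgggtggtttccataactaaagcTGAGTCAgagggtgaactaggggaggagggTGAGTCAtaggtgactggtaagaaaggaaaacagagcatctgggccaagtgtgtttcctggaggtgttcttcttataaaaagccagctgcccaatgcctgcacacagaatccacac
Sprr1b: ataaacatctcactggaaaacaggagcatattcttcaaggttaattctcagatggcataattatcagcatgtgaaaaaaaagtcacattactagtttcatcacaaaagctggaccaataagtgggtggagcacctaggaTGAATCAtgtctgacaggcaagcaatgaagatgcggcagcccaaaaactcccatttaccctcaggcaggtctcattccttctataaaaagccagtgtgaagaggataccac

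Sprr2b, Sprr2d, Sprr2e and Sprr2f each held 1 AP-1 match and 1 octamer match, with the AP-1 match starting between -197 and -193 and the octamer between -112 and -108 relative to the start. The same arrangement stood before Sprr2h, Sprr2i and Sprr2k, which were measured but not called, with a second AP-1 match before Sprr2k. Sprr2a1, Sprr2a2 and Sprr2a3 held neither motif in their windows. When aligned, those windows were only 45.4% to 49.5% identical to the windows of the Sprr2 genes above. Whether they cover the matching stretch of promoter was not tested. Sprr2a1, Sprr2a2 and Sprr2a3 have no probe set of their own. A probe set paired with these genes and also with the called member Sprr2b rose by 2.54 (SE 0.28, adjusted p = 0.0033, limma over all 35556 probe sets). Another measurement, paired with Sprr2a1 and Sprr2a3, rose by 2.40 (SE 0.28, adjusted p = 0.0039, same test). Which of the paired genes these values come from was not tested. Of all 32851 promoters in the table, 6.75% held TGANTCA and 1.60% held ATTTGCAT in the same 250 bases. Sprr1a held 2 AP-1 matches, at -146 and -116, while Sprr1b held 1, at -111, and neither held the octamer. A match is a run of letters and not a measured binding site.

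The forkhead motif TGTTTNC, the kind of sequence that FOXA factors bind, was found before 3 of the 9 members with a window (Sprr1a, Sprr1b and Lor) and in 17.8% of all promoters. None of the 4 Sprr2 members with a window held it, nor did Sprr2h, Sprr2i and Sprr2k, while Sprr2a1, Sprr2a2 and Sprr2a3 each held 1 match. The estrogen response element, GGTCANNNTGACC, was in none of the 9 and in 0.064% of promoters, and its arm AGGTCA was before Sprr2f and Ivl and in 14.02% of promoters. Identity between the aligned windows of 7 Sprr2 genes (Sprr2b, Sprr2d, Sprr2e, Sprr2f, Sprr2h, Sprr2i and Sprr2k) ran from 57.0% to 88.9%. Sprr2d and Sprr2e were the closest at 88.9%, and their log2 changes in deleted uteri were 3.44 and 1.29. Sprr2d and Sprr2i were 76.9% identical, with changes of 3.44 and 0.23 (the latter not called). Sprr1a and Sprr1b shared 52.2%. More distant pairs came near that level, with 53.3% for Sprr3 and Sprr2h and 50.9% for Sprr3 and Ivl. The lowest identity over all pairs was 41.5%.

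**Figure D1:**
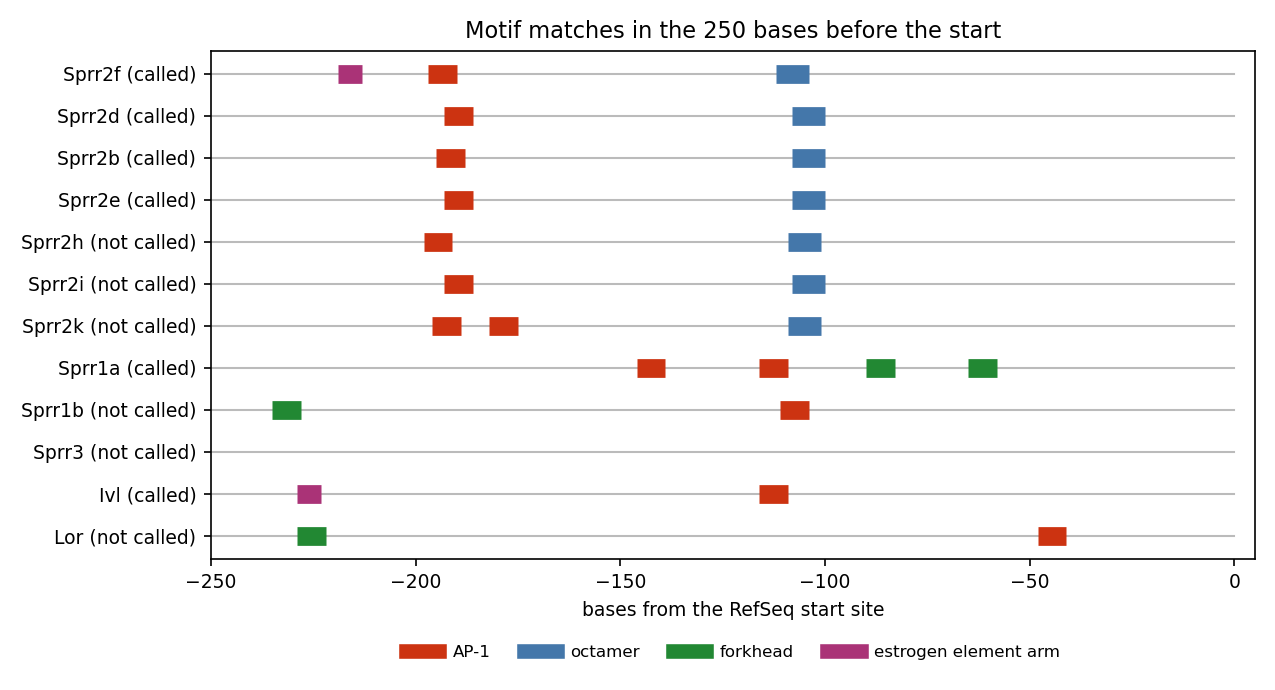
Motif matches in the 250 bases before the RefSeq start of 12 genes of the cluster, with distance from the start in bases on the horizontal axis, 1 line per gene and the call in deleted uteri (adjusted p under 0.05) in brackets. The 7 Sprr2 genes shown carry an AP-1 match near -195 and an octamer near -110, whether called or not.

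Of the 10 genes 7 rose in deleted uteri, none fell and 3 did not pass (limma, Benjamini-Hochberg adjusted p under 0.05 over all genes tested). Their median log2 change was 1.48, where the median of all genes was 0.0075. Over all genes 11.1% were called, 4.50% higher and 6.58% lower. The split of higher against lower calls moved with the scaling, from 898 and 1311 to 1082 and 982 when each array was centred on its median. In 8 of the 10 genes every deleted uterus lay above every control, which held for 9.55% of all genes, and in 21.1% of all genes the groups did not overlap in either direction. The genes were listed with earlier results on these arrays known, among them the rise of Sprr2b, Sprr2d and Sprr2f, so these counts describe the members and are no independent support. In whole tissue more transcript per cell and more cells that make it cannot be told apart.

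**Figure D2:**
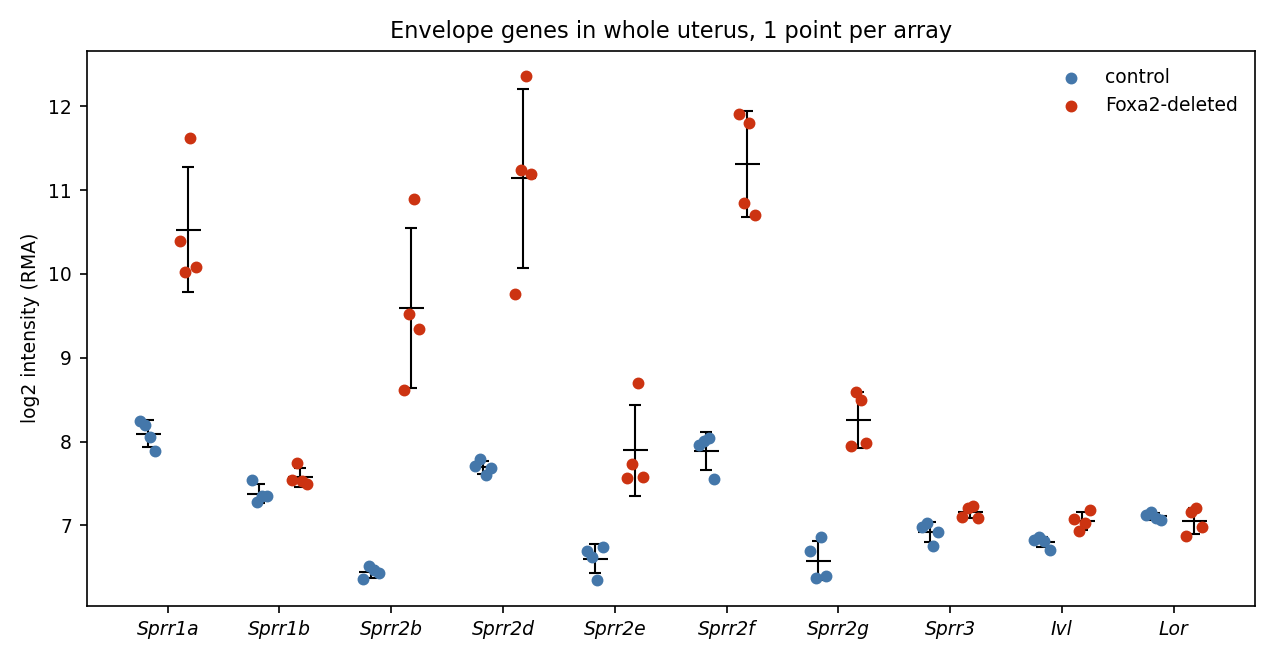
Log2 intensity of the 10 genes on the 8 arrays, 1 point per uterus, controls at the left of each pair and Foxa2-deleted uteri at the right, with the mean and SD of 4 as a bar. Sprr1a, Sprr2b, Sprr2d, Sprr2e, Sprr2f and Sprr2g stand clear of their controls, while Sprr1b, Sprr3, Ivl and Lor differ by 0.25 or less.

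Sprr2f, the Sprr2 gene best known as an estrogen target of the uterine lumen, read 7.96, 8.01, 8.04 and 7.55 in controls and 11.91, 10.84, 11.80 and 10.70 in deleted replicates 1 to 4. The lowest deleted uterus stood 2.66 above the highest control. The log2 change was 3.42, or 10.7-fold (SE 0.28, adjusted p = 5.3e-04, limma). Sprr2d, a second Sprr2 gene of the cluster, read 7.71, 7.79, 7.60 and 7.68 in controls and 9.76, 11.24, 12.36 and 11.19 in deleted uteri. Deleted replicate 1 was the lowest of these and replicate 3 the highest, and no value overlapped with the controls. The log2 change of Sprr2d was 3.44, or 10.9-fold (SE 0.44, adjusted p = 0.0043).

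Sprr2b read 6.36, 6.52, 6.47 and 6.43 in controls and 8.61, 9.52, 10.89 and 9.34 in deleted uteri. Its order over the deleted arrays was that of Sprr2d, from replicate 1 up to replicate 3, and its log2 change was 3.15, or 8.85-fold (SE 0.39, adjusted p = 0.0040). In controls its probe set was among the dimmest 11.4% of genes, and in deleted uteri it was brighter than 72.8% of them. Sprr2d and Sprr2f went from percentiles 31.5 and 35.5 to 96.0 and 96.8. Array signals are compressed at low intensity, and folds from such low control levels may be understated.

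Sprr2g, which RefSeq classes as a transcribed pseudogene, read 6.69, 6.37, 6.86 and 6.40 in controls and 7.95, 8.59, 8.49 and 7.98 in deleted uteri, a 3.19-fold increase (log2 change 1.67, SE 0.17, adjusted p = 0.0016). Sprr2e read 6.70, 6.62, 6.35 and 6.74 in controls and 7.57, 7.73, 8.70 and 7.58 in deleted uteri. Its log2 change was 1.29, or 2.45-fold (SE 0.24, adjusted p = 0.016), and 1.02 without replicate 3 (adjusted p = 0.0011). Leaving out control replicate 2 or 3 ended the Sprr2e call, at adjusted p of 0.0519 and 0.0532. The Sprr2 genes are close copies of each other. How far a probe set also reads its paralogs was not tested, so each Sprr2 value is uncertain as that of its gene alone.

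Sprr1a, a cornifin also known to be switched on in stressed and injured tissue, read 8.24, 8.20, 8.05 and 7.89 in controls and 10.39, 10.02, 11.62 and 10.08 in deleted uteri. Replicate 3 was again highest, and the lowest deleted uterus lay 1.78 above the highest control. The log2 change was 2.43, or 5.40-fold (SE 0.32, adjusted p = 0.0047). Its paralog Sprr1b read 7.54, 7.28, 7.35 and 7.35 in controls and 7.54, 7.74, 7.53 and 7.49 in deleted uteri. The groups overlapped and the change of Sprr1b, 0.20, was not called (95% interval 0.03 to 0.36, adjusted p = 0.116). Relative to the control mean Sprr1a exceeded Sprr1b on 4 of 4 deleted arrays, by 2.24 ± 0.79 (SD, n = 4), a difference given as a description with no test.

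Sprr3, the family member of oral and esophageal epithelium, read 6.98, 7.03, 6.76 and 6.92 in controls and 7.10, 7.21, 7.23 and 7.09 in deleted uteri. The groups did not overlap, but the change of 0.24 (95% interval 0.08 to 0.39) missed the threshold (adjusted p = 0.057), and passed it only when arrays were centred on their medians (adjusted p = 0.042). Ivl, an early scaffold protein of the envelope, read 6.83, 6.86, 6.81 and 6.71 in controls and 7.08, 6.93, 7.03 and 7.18 in deleted uteri. Its rise was called but small, at 1.19-fold (log2 change 0.25, SE 0.06, adjusted p = 0.037). The Ivl call was lost without any 1 control, deleted replicate 1 or deleted replicate 3 (adjusted p up to 0.108), under cyclic loess (adjusted p = 0.062) and when all probe sets were tested (adjusted p = 0.0503). Lor, the main protein of the mature envelope, read 7.12, 7.16, 7.09 and 7.06 in controls and 6.88, 7.16, 7.21 and 6.98 in deleted uteri. Its groups overlapped, with a change of -0.05 (95% interval -0.22 to 0.12, adjusted p = 0.673).

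The deleted uteri differed from each other most in the members that moved most. Between the lowest and the highest deleted array the range was 2.60 in Sprr2d, 2.28 in Sprr2b, 1.60 in Sprr1a and 1.21 in Sprr2f, against 0.19, 0.16, 0.35 and 0.49 among controls. Replicate 3 was the highest deleted array in 4 of the 7 called members, namely Sprr1a, Sprr2b, Sprr2d and Sprr2e. Replicate 1 was the lowest in 4, namely Sprr2b, Sprr2d, Sprr2e and Sprr2g. In Sprr2f, by contrast, replicate 1 was the highest, at 4.02 above the control mean, where it was 2.07 above it in Sprr2d and 2.17 in Sprr2b. Replicate 3 stood at 3.91, 4.67 and 4.45 above the control mean in the same 3 genes.

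**Figure D3:**
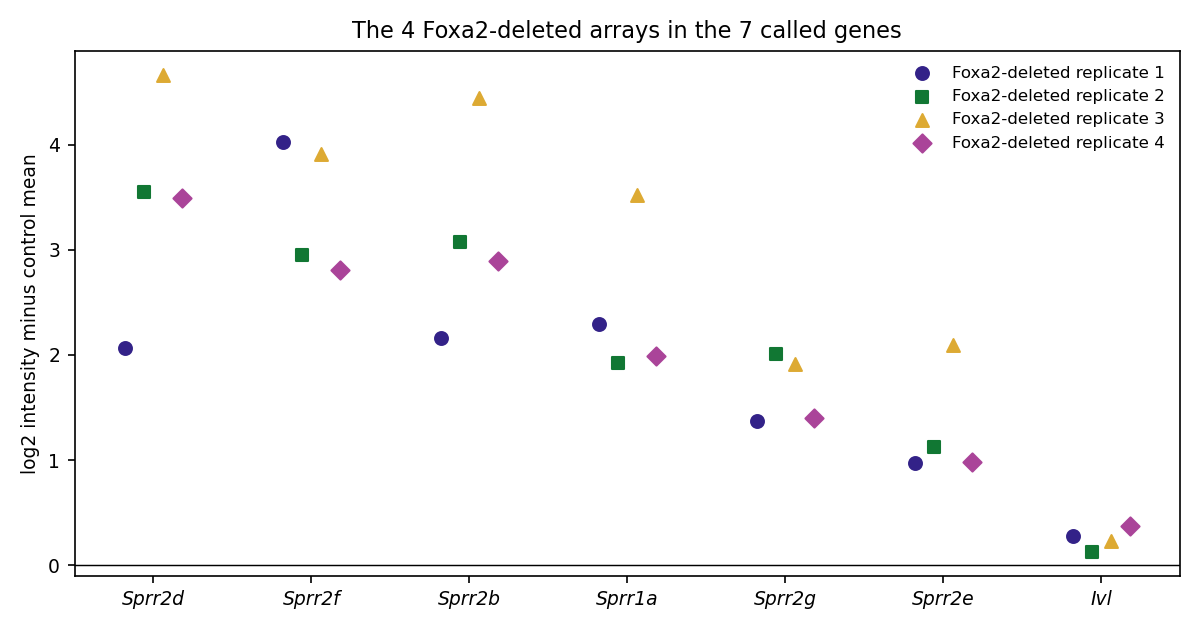
Log2 intensity minus the control mean on each of the 4 Foxa2-deleted arrays, for the 7 called members ordered by their change, with 1 symbol per uterus. Replicate 1 is the lowest array in Sprr2d and Sprr2b and the highest in Sprr2f, and all points of the 7 genes lie above 0.

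Between Lor and Ivl the reference lists 25 genes, of which 17 were tested, and 8 of these rose and none fell. The 7 tested genes that are not members had changes from 0.05 to 0.30, with 1 of them called. That was Sprr2j-ps, a pseudogene, which rose by 0.30 (SE 0.06, adjusted p = 0.018) from 6.01 ± 0.07 to 6.32 ± 0.09 (SD, n = 4 each). Omitting control replicate 2 or 3 left 5 of the 17 genes called. The large changes thus stood in a run of 5 consecutive tested genes, Sprr2b to Sprr2g, and again at Sprr1a, with called changes no larger than 0.30 between and outside them. Sprr2a1, Sprr2a2 and Sprr2a3 were not among the tested genes. Probe sets paired with several Sprr2 genes, these among them, rose by 2.40 and 2.54.

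**Figure D4:**
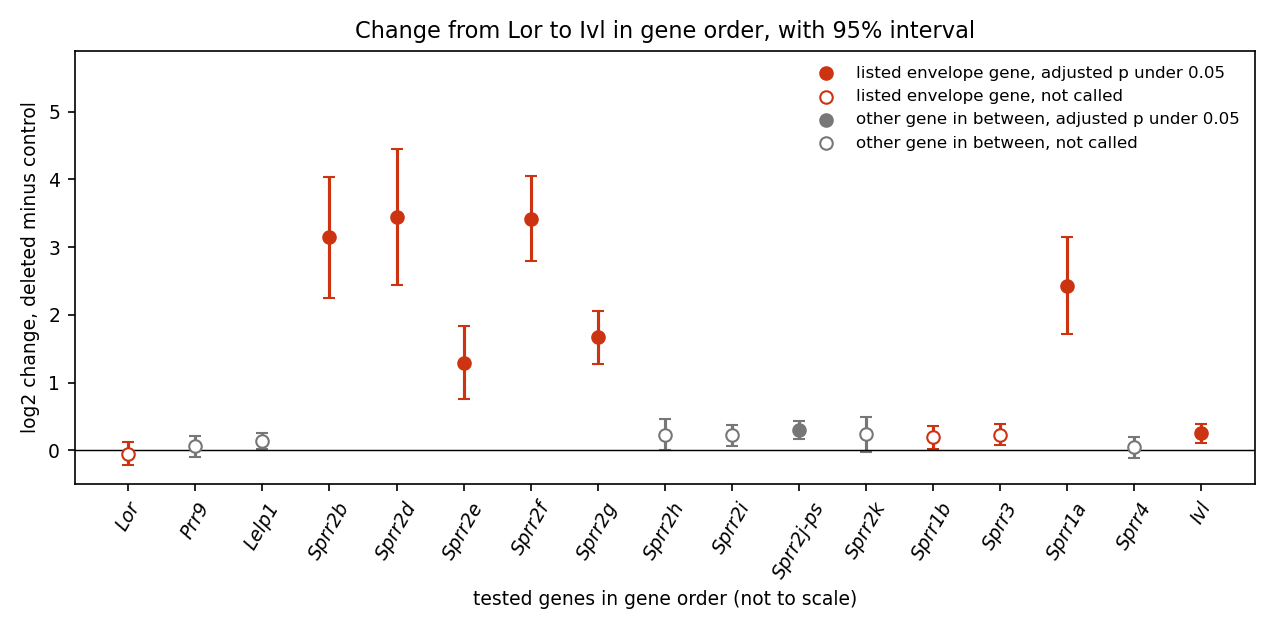
Log2 change in deleted uteri with its 95% interval for the 17 tested genes from Lor to Ivl, in gene order and not to scale, with members in red and called genes filled. Sprr2b, Sprr2d, Sprr2e, Sprr2f and Sprr2g, from 1.29 to 3.44, stand beside Sprr2h to Sprr2k, at 0.30 or less.

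Of 7 other Sprr genes listed, 4 had a probe set of their own and none was called, while 2 had an unadjusted p under 0.05. Sprr2i (log2 change 0.23, SE 0.07, adjusted p = 0.063) passed only when arrays were centred on their medians (adjusted p = 0.045), and Sprr2h changed by 0.24 (SE 0.10, adjusted p = 0.142). The other members of that list, Sprr2k and Sprr4, named after their values were seen, had changes of 0.24 and 0.05 (not called).

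Few genes of the later steps of cornification were called. Of 27 late envelope genes, such as the Lce family and the filaggrin-like genes, none rose, 1 fell and 26 did not pass (4 with an unadjusted p under 0.05; median change 0.03). Over all genes 11.1% were called. The filaggrin gene Flg itself, Lce1m and Lce3d were listed but not among the tested genes. Most of the 27 were dim, with 7 left without the dimmest 25% of genes and 0 without the dimmest 50%. Changes in this list may therefore be understated. The gene that fell was Lce1a2, by 0.24 (SE 0.06, adjusted p = 0.048). Its adjusted p rose as far as 0.129 when control replicate 2, 3 or 4 or deleted replicate 1, 3 or 4 was left out, and it also lost its call with arrays centred on their medians and when all probe sets were tested. The direction of the count turned in some settings. With arrays centred on their medians Crnn, the cornulin gene, was called higher and no gene lower. The same held without deleted replicate 4 and with the replicate number as a block. With array weights Crnn was higher and Lce1a2 lower. The desmosomal and scaffold list had 2 of 14 higher and 1 lower (median 0.09). Jup, which encodes plakoglobin, rose by 0.65 (SE 0.11, adjusted p = 0.012) and the desmosomal plaque gene Dsp by 0.99 (SE 0.24, adjusted p = 0.034), while Csta1, a cystatin A gene, fell by 0.30 (SE 0.06, adjusted p = 0.017). Dsp was not called when any 1 control or deleted replicate 1 or 4 was left out (adjusted p up to 0.0956), nor Csta1 when control replicate 2, 3 or 4 was (up to 0.058). With the replicate number as a block both lost their calls (adjusted p = 0.0536 and 0.0617). Csta1 was very dim, at 4.10 ± 0.07 in controls and 3.80 ± 0.08 in deleted uteri (SD, n = 4 each). The lower quartile of all genes in controls was 7.36, and Csta1 dropped out without the dimmest 25% of genes.

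The cross-linking and processing list had 4 of 22 higher and 1 lower (median 0.11). St14, the membrane protease matriptase, rose by 1.13 (SE 0.22), the kallikrein gene Klk10 by 1.08 (SE 0.27) and the retroviral-like protease gene Asprv1 by 0.68 (SE 0.16), with adjusted p of 0.018, 0.038 and 0.029. Klk7, named after its values were seen, was the fourth that rose (log2 change 0.23, adjusted p = 0.047), and the lysosomal protease gene Ctsd fell by 0.59 (SE 0.15, adjusted p = 0.043). Leaving out control replicate 2, 3 or 4 ended the call of St14 (adjusted p up to 0.0605) and leaving out any 1 control that of Asprv1 (up to 0.0894). For Klk10 any 1 control or deleted replicate 4 did so (up to 0.107), and for Ctsd any 1 control or deleted replicate 1, 3 or 4 (up to 0.114). For Klk7 any 1 control or deleted replicate 1 or 3 did so (up to 0.127). Testing all probe sets also ended the calls of Klk7, Klk10 and Ctsd. The 5 transglutaminase genes of the list, singled out after their values were seen, were not called, and 2 had an unadjusted p under 0.05. With array weights, and also without deleted replicate 4, Tgm2 was called higher. Tgm2 read 11.92 ± 0.03 in controls and 12.27 ± 0.27 in deleted uteri, and Tgm1, the keratinocyte enzyme, 8.56 ± 0.06 and 8.80 ± 0.27 (SD, n = 4 each). Of 14 S100 genes 1 rose, S100a11 by 0.25 (SE 0.06, adjusted p = 0.030), and 1 fell, S100a6 by 0.26 (SE 0.05, adjusted p = 0.020). S100a11 lost its call without any 1 control or deleted replicate 1 (adjusted p up to 0.0891) and S100a6 without control replicate 2, 3 or 4 or deleted replicate 1 (up to 0.0676). Changes in the S100 list ran from -0.26 to 0.99, and 8 genes had an unadjusted p under 0.05. With array weights, and without deleted replicate 3, S100a8 and S100a9 were also called higher.

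**Figure D5:**
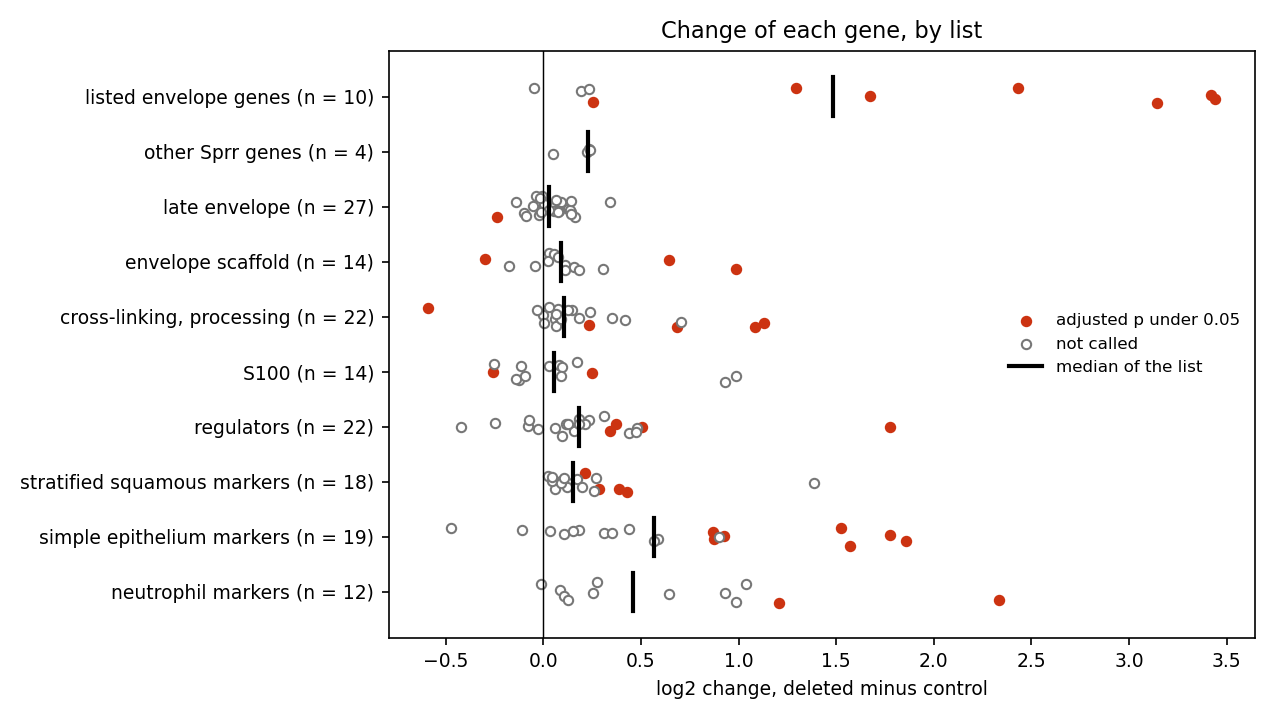
Log2 change of each measured gene in the members and in 9 other lists, with called genes in red, genes not called in open grey and the median of each list as a black line. The members have a median of 1.48, and the late envelope genes cluster around 0.03.

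The regulator list held AP-1, ETS, KLF and grainyhead factors of epithelial differentiation and the steroid receptors Esr1 and Pgr. Elf3, an epithelial ETS factor, rose by 1.78 (SE 0.25, adjusted p = 0.0067), from 9.23 ± 0.11 to 11.01 ± 0.60 (SD, n = 4 each). Of the 22 regulators 4 rose and none fell (median 0.18). The grainyhead factor Grhl3 rose by 0.51 (SE 0.09, adjusted p = 0.012), the AP-1 subunit gene Jund by 0.34 (SE 0.09, adjusted p = 0.045) and Pgr by 0.37 (SE 0.10, adjusted p = 0.043). The calls of Elf3 and Grhl3 held with each array left out. That of Jund was lost without any 1 control or deleted replicate 1, 2 or 3 (adjusted p up to 0.119) and that of Pgr without any 1 control or deleted replicate 1 or 4 (up to 0.105), and both under repeated quantile normalisation and when all probe sets were tested. Stat3 was called lower under repeated quantile normalisation, with array weights, without the dimmest 50% of genes and without deleted replicate 3.

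Markers of cell types moved in the same samples. Of 19 simple epithelium markers 7 rose and none fell (median 0.57), led by Krt19 (log2 change 1.86, SE 0.22), Elf3, the mucin gene Muc1 (1.57, SE 0.25) and Krt7 (1.53, SE 0.27), with adjusted p from 0.0034 to 0.014. These 4 genes were called with each array left out, but the count was 4 without control replicate 4 and 11 without deleted replicate 2, where Cldn3 was called lower. The mean level of the list ran from 9.80 to 9.96 on control arrays and from 10.1 to 11.1 on deleted arrays, highest on replicate 3 and lowest on replicate 2. Of 18 stratified squamous markers 4 rose and none fell (median 0.15), and the mean level was 7.15 to 7.23 in controls and 7.30 to 7.56 in deleted uteri. Most of the 18 were dim, where the lower quartile of all genes in controls was 7.36. Without the dimmest 25% of genes 7 markers were left, with only Krt14 called, and without the dimmest 50% 0 were left. All 18 changes were positive, and the largest, 1.39, was not called. In 6 of the 18 every deleted uterus lay above every control, against 9.55% of all genes. The same held for 10 of the 19 simple epithelium markers and 6 of the 12 neutrophil markers. Krt13 rose by 0.43 (SE 0.11), Krt17 by 0.39 (SE 0.09), Krt14 by 0.29 (SE 0.08) and Krt4 by 0.22 (SE 0.05), with adjusted p from 0.024 to 0.046. These calls were lost without any 1 control or deleted replicate 1 or 3 for Krt13 and Krt17 (adjusted p up to 0.118 and 0.0954), without any 1 array for Krt14 (up to 0.0943), and without control replicate 1, 2 or 4 or deleted replicate 1 for Krt4 (up to 0.0781). Cyclic loess also ended the calls of Krt13, Krt14 and Krt17, all probe sets tested those of Krt13 and Krt14, and array weights that of Krt14. Other markers were called higher in some settings, Krt6b with array weights and without deleted replicate 3. Without deleted replicate 4 the list had 6 called, among them Krt1, Krt6a and Krt6b. The basal cell genes Trp63 and Krt5, singled out after their values were seen, were not called, at 7.71 ± 0.04 and 7.75 ± 0.03 for Trp63 and 7.45 ± 0.12 and 7.57 ± 0.19 for Krt5 (SD, n = 4 each, controls then deleted). Of 12 neutrophil markers 2 rose and none fell (median 0.46), Cxcr2 by 2.33 (SE 0.43, adjusted p = 0.015) and Ly6g by 1.21 (SE 0.25, adjusted p = 0.021). The Cxcr2 call ended when control replicate 2 or 3 was left out (adjusted p up to 0.0539) and that of Ly6g without any 1 control or deleted replicate 1 (up to 0.066). Without deleted replicate 3, and with array weights, 5 neutrophil markers were called higher, among them S100a8 and S100a9. The mean level of the neutrophil list was 7.24 to 7.43 in controls and 7.76 to 8.64 in deleted uteri, highest on replicate 3. The deposited values carry no detection call, so no marker can be called absent, and the part of these cell types in the rise of the Sprr genes was not tested.

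The 5 genes outside the members whose deviation from the control mean over the 8 arrays was nearest to that of Sprr2f were Arg1, A2m, Muc4, Alpl and Oxtr, at root mean square differences of 0.41, 0.50, 0.51, 0.52 and 0.57 on the log2 scale. Sprr2b, Sprr2d and Sprr1a differed from Sprr2f by 0.97, 1.14 and 1.10 over the 4 deleted arrays alone. The first distances are over 8 arrays, controls among them, and the others over 4, so the first cannot be set against the others. These distances are descriptions over arrays that share 1 set of controls. Arg1, which encodes arginase 1, went from 7.20 ± 0.07 to 10.33 ± 0.99 and the oxytocin receptor gene Oxtr from 8.13 ± 0.12 to 10.82 ± 0.85 (SD, n = 4 each).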

How the data were processed

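Total RNA (150 ng) of each whole uterus was labelled with biotin by a whole-transcript protocol and hybridised to 1 array, per the labels' protocols, with no pooling. The authors' deposited values are log2 intensities made with RMA, per the submitters' processing notes, which also name limma. Their versions and the genome build were stated in no source used here. The labels call the replicates biological, so p-values measure the spread between animals, with precision limited by the 8 arrays.

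Of 35556 probe sets 21789 carried 1 gene symbol in the platform annotation held by GEO, 1621 several and 12146 none. Only the first kind was named and tested, with the highest-mean probe set per gene, which left 19938 genes. Genotypes were compared with lmFit and eBayes in limma 3.58.1 (R 4.3.3) with no covariate, adjusted by Benjamini-Hochberg over all genes and called at adjusted p under 0.05. Changes are deleted minus control, SE and 95% intervals are those of the moderated fit, and the steps were tested on simulated data. The simulation gave both groups the same spread for each gene. In the real data spreads differed, as in Sprr2d (SD 0.08 in controls and 1.07 in deleted uteri). How the fit behaves under such unequal spread was therefore not tested. The members and all gene lists were chosen with earlier results of these data known. Genes were named by rule: every member, Foxa2, in each list up to 4 called genes taken in order of adjusted p (2 by p if none was called), and the 5 genes nearest to Sprr2f. Names outside it are marked. Promoters are RefSeq windows on GRCm38.p6 aligned with Biopython 1.88, and their coordinates are not those of the probe sets.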

Additional observations from a re-analysis of the deposited data

Results flagged for a closer look

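Data outside the comparison of single genes held 3 probe sets that the annotation pairs with several Sprr2 genes, so that their values belong to no gene alone. Probe set 10493850, paired with Sprr2a1, Sprr2a2, Sprr2a3 and Sprr2b, rose by 2.54 (SE 0.28, adjusted p = 0.0033, limma over 35556 probe sets), from 8.90, 8.91, 8.79 and 8.75 in controls to 11.77, 10.93, 12.09 and 10.72 in deleted uteri. Probe set 10493856, paired with Sprr2a1 and Sprr2a3, rose by 2.40 (SE 0.28, adjusted p = 0.0039), from 8.58, 8.44, 8.35 and 8.35 to 11.36, 10.33, 11.41 and 10.21, and probe set 10493858 held the same 8 values. Deleted replicates 1 and 3 were the higher arrays in these probe sets, as in Sprr2f, while in Sprr2b and Sprr2d replicate 1 was the lowest.

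Of 22 groups of 4 arrays checked in the members and Foxa2, 2 held an array far from the other 3, where chance gives about 1 in 20. Sprr2e stood at 8.70 on deleted replicate 3 against at most 7.73 on the others. Sprr2f stood at 7.55 on control replicate 4 against at least 7.96 on the others, and its log2 change was 3.31 without that array.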

How the results depend on the processing

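Sprr1a, Sprr2b, Sprr2d, Sprr2f and Sprr2g kept their direction and their call, and Foxa2 its own, under every alternative run that gave them a value. These were 3 other scalings, 2 filters on dim genes, the mean of all probe sets, a test of all probe sets, array weights, a replicate block and each array left out. Between 5 and 7 members were called with single arrays left out. Without the dimmest 25% of genes 6 members were left and 5 called, and without the dimmest 50% 3 were left and all 3 called. With the replicate number as a block (replicate block) 5 members were called, Sprr2e (adjusted p = 0.0507) and Ivl (adjusted p = 0.0948) losing their calls, and the counts were 1062 genes in all, against 2209, and 11 genes of the lists, against 27. Same-numbered arrays deviated together with correlations of 0.057, -0.051, -0.026 and -0.009, and no control correlated best with its own number. No pairing was thus seen over all genes, but such a check cannot exclude one that acts on some genes. Lor, not called, changed sign without deleted replicate 1 (0.0092), and its change ran from -0.10 to 0.0092 with single arrays left out. With single arrays left out, called genes ran from 556 to 3059 over all genes, from 7 to 33 in the lists and from 5 to 8 between Lor and Ivl. Those alternatives were added for Klk7 and for the genes between Lor and Ivl after seeing the data, and gave for the latter 5 called without the dimmest 25% and 3 without the dimmest 50%, where 7 and 3 genes were left. The cause was not tested where fewer genes tested or fewer arrays does not show it.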
